A study of Homo sapiens with 12 samples.

Results

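The 8 genes described here, RNASE1, PLXDC2, SPINK1, CYTL1, C7, VAV3, REEP1 and ALS2CL, were chosen from the Hs-578T libraries as genes with very large changes between engineered and parental cells. All 8 are protein coding, out of 32152 genes with deposited values and 13737 tested protein-coding genes. All passed the filter on low values (0.5 RPKM or more in 2 or more libraries). RNASE1, PLXDC2 and SPINK1 did so only through groups in which they were high. CYTL1, C7 and VAV3 did so in Hs-578T libraries alone, and REEP1 and ALS2CL in both cell lines. RPKM count the reads of a gene per kilobase of its length, scaled to the total reads of its library. MDA-MB-231 and Hs-578T are established cell lines of triple-negative breast cancer, and each was sequenced as parental cells, as cells labelled ERK5-ko and as cells labelled MEK5DD, with 2 libraries of each. ERK5-ko cells were edited with CRISPR-Cas9 and guides to MAPK7, the gene of ERK5, and MEK5DD stands for MEK5, the upstream kinase of ERK5, in a form that is always active. All cells were grown to 70% confluence. The labels give passages 29 and 30 for MDA-MB-231 parental cells, 7 and 8 for ERK5-ko and 10 and 11 for MEK5DD, against 83 and 84 for Hs-578T parental cells and 8 and 9 for both engineered Hs-578T lines, so passage and genotype cannot be told apart. The MDA-MB-231 ERK5-ko line grew from 1 surviving clone and the Hs-578T ERK5-ko line from single-cell clones, of which the sequenced one is not given in the sources used here, nor is the making of the MEK5DD lines. The 2 libraries of a group come from consecutive passages of 1 line, and p values measure only the spread between such libraries.

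The 8 genes belong to no common pathway. RNASE1 is a secreted ribonuclease best known from pancreas and endothelium, SPINK1 a secreted inhibitor of trypsin, CYTL1 a small secreted protein of cartilage, and C7 a component of the membrane attack complex of complement, which is made largely outside the liver. PLXDC2 is a membrane protein that binds pigment epithelium-derived factor, VAV3 an exchange factor that activates RAC and related small GTPases, REEP1 a protein that shapes the endoplasmic reticulum, and ALS2CL a protein that binds the endosomal GTPase RAB5.

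Promoter sequences of the 8 genes were found in RefSeq (GRCh38.p14), and the parts upstream of the genes' deposited spans are shown for 4 of them that take different courses: CYTL1, the gene most reduced in Hs-578T ERK5-ko libraries, SPINK1, which was high there, ALS2CL, which was high in Hs-578T MEK5DD libraries, and REEP1, whose MEK5DD values lay on opposite sides of the parental ones in the 2 lines. They are written 5′ to 3′ in the direction of the gene. Capitals mark GGGCGG (GC box), TGANTCA (AP-1), CTANNNNTAG (MEF2-like, ERK5 being a kinase of MEF2 factors) and TATAAA on either strand.
CYTL1, chr4:5019473-5019708, strand -: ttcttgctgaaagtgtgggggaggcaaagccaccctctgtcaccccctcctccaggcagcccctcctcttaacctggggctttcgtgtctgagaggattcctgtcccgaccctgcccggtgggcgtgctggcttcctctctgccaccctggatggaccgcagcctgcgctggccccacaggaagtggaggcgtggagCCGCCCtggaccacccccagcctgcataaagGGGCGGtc
SPINK1, chr5:147831787-147831921, strand -: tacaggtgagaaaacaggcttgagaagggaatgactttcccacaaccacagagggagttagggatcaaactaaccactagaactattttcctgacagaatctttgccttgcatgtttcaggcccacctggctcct
ALS2CL, chr3:46693705-46693929, strand -: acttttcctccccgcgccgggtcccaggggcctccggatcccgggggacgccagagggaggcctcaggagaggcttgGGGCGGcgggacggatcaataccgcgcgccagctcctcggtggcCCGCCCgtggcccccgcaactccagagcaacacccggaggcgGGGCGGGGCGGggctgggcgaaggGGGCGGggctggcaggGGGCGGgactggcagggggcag
REEP1, chr2:86338084-86338333, strand -: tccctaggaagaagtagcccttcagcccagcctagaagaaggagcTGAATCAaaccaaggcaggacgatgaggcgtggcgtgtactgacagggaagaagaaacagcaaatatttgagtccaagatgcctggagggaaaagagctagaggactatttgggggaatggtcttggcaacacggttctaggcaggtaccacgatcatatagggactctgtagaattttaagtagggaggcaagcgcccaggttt
In the 250 bases before each RefSeq start, of which 250 in RNASE1, 245 in C7, 193 in PLXDC2, 115 in SPINK1, 25 in ALS2CL, 14 in CYTL1 and 0 in REEP1 fall inside the deposited spans, ALS2CL held 26 CpG dinucleotides, CYTL1 11, REEP1 6 and SPINK1 0, where 6.06% of the 35116 RefSeq promoters held no more than SPINK1. The GC box occurred 6 times in ALS2CL and 2 times in CYTL1, and 42.6% of all promoters held it. TGANTCA occurred 1 time each in RNASE1 and REEP1, and 6.57% of promoters held it. RNASE1 and REEP1 have 2 RefSeq promoters each, of which only the one nearest the gene's deposited start is described. CTANNNNTAG, in 2.36% of promoters, was found in none of the 7 other than VAV3. TATAAA, in 10.7% of promoters, was found 1 time in C7. The sole VAV3 entry lies 276645 bases inside the gene from its deposited start, and its motifs are not described.

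The library totals lay between 20248162 and 27791195 reads. Log2 values correlated at r of 0.991 to 0.999 within groups and 0.772 to 0.804 between lines over the tested genes. MAPK7 RNA was at 13.3 to 18.1 RPKM in all 12 libraries and not lower in those labelled ERK5-ko. Against parental cells, its log2 fold change was 0.29 for MDA-MB-231 ERK5-ko (limma adjusted p = 0.0709). For Hs-578T ERK5-ko it was 0.26 (limma adjusted p = 0.0624). By Western blot, the paper reports far less ERK5 protein in both ERK5-ko lines than in their parental cells. RNA values do not measure protein, so they cannot decide whether the knockout succeeded. Directions below refer to libraries labelled ERK5-ko. MAP2K5, the gene of MEK5, rose by 3.77 on the log2 scale in libraries labelled MEK5DD of MDA-MB-231, from a mean of 13.2 to 186 RPKM (limma adjusted p = 3.31e-10). In those of Hs-578T it rose by 0.50, from 15.8 to 22.5 RPKM (adjusted p = 0.00492, a fold inside the limit used below). Vimentin (VIM) was at 1600 RPKM or more everywhere, ESR1 at 0.12 or less and PGR at 0.348 or less, while ERBB2 was at 27.8 to 56.8. Of the markers of other cells, CDH5 stayed at or under 0.0259 and PTPRC at or under 0.396. In Hs-578T, EPCAM stayed at or under 0.0862 and PECAM1 was at 2.81 to 6.48. In MDA-MB-231 MEK5DD, where 3 members rose as described below, the epithelial gene EPCAM fell from a mean of 19.0 to 7.44 RPKM (-1.30, adjusted p = 2.24e-06), VIM rose from 1680 to 3450 (1.04, adjusted p = 4.01e-05), and PECAM1 was at 0.768 and 0.252 (-0.76, adjusted p = 0.000249, a fold inside the limit used below). ACTA2, a gene of contractile cells, moved with the Hs-578T groups, at 124 and 157 RPKM in parental, 457 and 495 in ERK5-ko and 52.5 and 60.6 in MEK5DD libraries. The part of these shifts in the members' values was not tested.

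RNASE1 (ENSG00000129538.13, chr14:20801228-20803278) was all but silent in 10 of the 12 libraries (gene coordinates here and below are on GRCh38). It measured 36.1 and 30.7 RPKM in the Hs-578T ERK5-ko libraries (859 and 674 reads), against 0.193 and 0.160 in parental (4 and 3 reads) and 0.272 and 0.161 in MEK5DD libraries (5 and 3 reads). In MDA-MB-231 it had 2 reads in each parental library, 1 and 0 in ERK5-ko and none in MEK5DD. The 2 Hs-578T ERK5-ko libraries thus stood apart from all others. Pooled over the group, the reads were 189-fold higher than in parental cells (95% exact interval 91.6 to 471, counting error only, as for all intervals below), and the fitted log2 fold change, on the scale of log2(RPKM + 0.5) used throughout, was 5.64 ± 0.118 (standard error, SE). In RNA of whole cultures, fewer cells that make an RNA and less of it per cell cannot be told apart.

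SPINK1 (ENSG00000164266.10, chr5:147824568-147831786) had the same course at a lower level. It measured 10.9 and 13.7 RPKM in Hs-578T ERK5-ko libraries (187 and 218 reads), 0.401 and 0.147 in parental (6 and 2 reads) and 0.377 and 0.521 in MEK5DD libraries (5 and 7 reads). The parental and MEK5DD libraries overlapped. MDA-MB-231 gave 1 read in each MEK5DD library and none in the other 4. The reads of Hs-578T ERK5-ko were 43.7-fold higher than parental (22.0 to 102) and the log2 fold change was 4.06 ± 0.158 (SE).

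PLXDC2 (ENSG00000120594.16, chr10:19816239-20289856) was the one of these 3 genes with RNA in an engineered line of MDA-MB-231 as well. In Hs-578T it measured 12.2 and 12.4 RPKM in ERK5-ko libraries (1829 and 1716 reads), 0.0459 and 0.110 in parental (6 and 13 reads), and 0 and 0.00852 in MEK5DD libraries (0 and 1 read). The ERK5-ko reads were 161-fold higher than parental (103 to 268) and the log2 fold change was 4.47 ± 0.0985 (SE). The MEK5DD reads were 17.8-fold lower than parental (2.83 to 739), an interval as wide as 1 read allows. In MDA-MB-231 it was the MEK5DD libraries that were high, as tested below.

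CYTL1 (ENSG00000170891.10, chr4:5014586-5019472) showed the reverse, a gene of parental Hs-578T cells that was nearly lost in ERK5-ko. It measured 63.5 and 60.4 RPKM in parental libraries (887 and 765 reads), 20.3 and 12.8 in MEK5DD (251 and 160 reads) and 0.125 and 0.0676 in ERK5-ko (2 and 1 reads). The 3 groups did not overlap. The reads were 638-fold lower in ERK5-ko than in parental libraries (218 to 3100) and 3.76-fold lower in MEK5DD (3.37 to 4.20). No read of CYTL1 was found in the 6 MDA-MB-231 libraries, which allows up to 0.188 RPKM in its parental cells, the level of 3 reads.

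C7 (ENSG00000112936.18, chr5:40909252-40982939) and VAV3 (ENSG00000134215.15, chr1:107571160-107965144) were lower in both engineered Hs-578T lines, and lower in MEK5DD than in ERK5-ko. C7 measured 23.2 and 22.0 RPKM in parental libraries, 5.33 and 4.19 in ERK5-ko and 2.12 and 1.95 in MEK5DD. VAV3 measured 7.37 and 9.25 in parental libraries, 2.79 and 2.37 in ERK5-ko and 0.633 and 0.803 in MEK5DD. For both genes the 3 groups were apart. The reads of C7 were 4.74-fold lower than parental in ERK5-ko (4.13 to 5.45) and 11.1-fold lower in MEK5DD (8.96 to 14.0). Those of VAV3 were 3.19-fold lower in ERK5-ko (2.73 to 3.75) and 11.5-fold lower in MEK5DD (8.56 to 15.8). Neither gene had more than 1 read in any MDA-MB-231 library.

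REEP1 (ENSG00000068615.16, chr2:86213993-86338083) was expressed in both lines and lower in both engineered Hs-578T lines. It measured 4.95 and 4.90 RPKM in Hs-578T parental libraries (196 and 176 reads), 0.550 and 0.619 in ERK5-ko (25 and 26 reads) and 0.370 and 0.281 in MEK5DD (13 and 10 reads). The reads were 8.45-fold lower in ERK5-ko (6.29 to 11.6) and 15.1-fold lower in MEK5DD (9.93 to 24.2). In MDA-MB-231 the same gene measured 2.64 and 2.66 in parental, 3.76 and 4.04 in ERK5-ko and 6.02 and 5.85 in MEK5DD libraries, so that the 2 lines ran in opposite directions.

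ALS2CL (ENSG00000178038.16, chr3:46668997-46693704) was the member that was high in Hs-578T MEK5DD. It measured 16.7 and 11 RPKM there (1264 and 844 reads), 2.05 and 2.09 in parental (175 and 162 reads) and 1.65 and 1.94 in ERK5-ko libraries (162 and 176 reads). The MEK5DD libraries lay well above the other 4, and they were also the least alike of the 3 pairs. The reads were 6.69-fold higher in MEK5DD than in parental libraries (5.96 to 7.52) and the log2 fold change was 2.45 ± 0.168 (SE), and 1.15-fold lower in ERK5-ko (0.990 to 1.35).

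**Figure D1:**
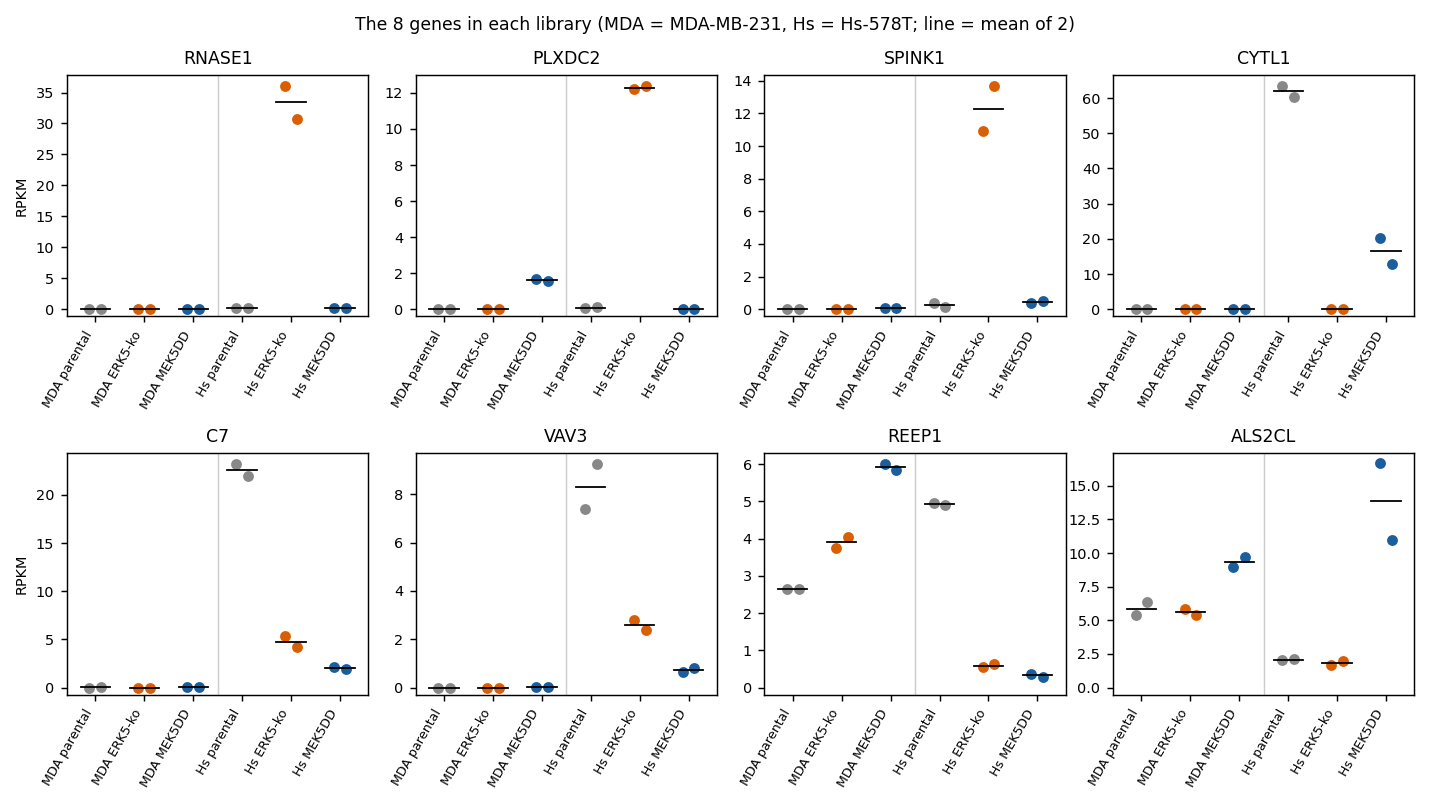
RPKM (vertical axis, a scale of its own for each gene) of the 8 genes in the 12 libraries, in 6 groups of 2, with a point for each library and a line at each group's mean. RNASE1, SPINK1 and PLXDC2 peak in Hs-578T ERK5-ko, CYTL1, C7 and VAV3 in Hs-578T parental cells, REEP1 in MDA-MB-231 MEK5DD (6.02 and 5.85) and ALS2CL in Hs-578T MEK5DD (16.7 and 11).

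These Hs-578T values chose the genes and are given as a description, with no test. RNASE1, PLXDC2 and SPINK1 had the 3 highest fold changes of the 1122 genes called higher in Hs-578T ERK5-ko at a mean of 1 RPKM or more, and KRTAP7-1 followed at 3.93. CYTL1 came first of 397 called lower, at -6.71, before PAGE5 at -3.93, with REEP1, C7 and VAV3 at ranks 23, 37 and 117. In Hs-578T MEK5DD, C7 (-3.19), VAV3 (-2.85) and REEP1 (-2.72) came first of 169 called lower, before NLGN4X at -2.57, with CYTL1 at rank 20. ALS2CL came second of 327 called higher, after MFAP4 at 2.76 and before KRT17 at 2.43. Of all tested genes, 9.35% were called higher and 3.27% lower in Hs-578T ERK5-ko, and 2.9% and 1.49% in Hs-578T MEK5DD. Both comparisons share the Hs-578T parental libraries.

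MDA-MB-231 played no part in the choice, and there the same 8 genes were tested. A gene was called at an adjusted p under 0.05 over all tested genes and a fold above 1.5 or below 0.5. In MDA-MB-231 MEK5DD, PLXDC2, REEP1 and ALS2CL rose, 3 of 8 against 7.64% of all tested genes called higher and 6.31% called lower, and 0 fell (limma, with 0 at an unadjusted p under 0.05 and 1, RNASE1, by limma voom, from 2 reads in each parental library to none). In libraries labelled ERK5-ko, 0 of 8 were called (limma), against 2.8% of tested genes higher and 1.07% lower, although REEP1 passed the adjusted p, as 17.3% of tested genes did, and was the 1 member with an unadjusted p under 0.05, and limma voom called 0. The other 5 genes, RNASE1, SPINK1, CYTL1, C7 and VAV3, were at 3 reads or fewer in every MDA-MB-231 library, a level at which 4.72% of the tested genes lay in parental, 5.47% in ERK5-ko and 4.99% in MEK5DD libraries. No fold is given for them, and changes under this level were not detectable at this depth.

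PLXDC2 rose in MDA-MB-231 MEK5DD from 0.0283 and 0.0189 RPKM (4 and 3 reads) in parental libraries to 1.67 and 1.57 (230 and 249 reads). The reads were 69.4-fold higher (33.4 to 173) and the log2 fold change was 2.02 ± 0.0985 (SE, adjusted p = 3.28e-08), and it was higher in both libraries than in both parental ones. ERK5-ko libraries of this line had 3 and 1 reads of PLXDC2, near the parental level (-0.02, adjusted p = 0.923). The line in which PLXDC2 was high was thus ERK5-ko in Hs-578T and MEK5DD in MDA-MB-231.

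REEP1 rose in MDA-MB-231 MEK5DD 2.24-fold in reads (1.92 to 2.62) and the log2 fold change was 1.03 ± 0.104 (SE, adjusted p = 1.15e-05). In ERK5-ko its reads were 1.48-fold higher than parental (1.25 to 1.75) and the log2 fold change was 0.48 ± 0.104 (SE, adjusted p = 0.00837), a fold under the limit of 1.5. That adjusted p became 0.0678 without parental replicate 1, 0.062 without parental replicate 2 and 0.0677 without ERK5-ko replicate 2. Both changes went upward in MDA-MB-231, the line in which parental REEP1 was lower, at 2.65 ± 0.0138 RPKM (SD, n = 2) against 4.93 ± 0.0343 (SD, n = 2) in Hs-578T.

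ALS2CL was already expressed in MDA-MB-231 parental cells, at 5.38 and 6.37 RPKM, and measured 5.85 and 5.4 in ERK5-ko and 8.94 and 9.68 in MEK5DD libraries. The MEK5DD libraries lay above the other 4. The rise was 1.58-fold in reads (1.47 to 1.70) and the log2 fold change was 0.63 ± 0.168 (SE, adjusted p = 0.0110). It rested on 2 libraries, since it lost its call without MEK5DD replicate 2 (0.57, adjusted p = 0.0763) and without parental replicate 1 (0.51, adjusted p = 0.0976). ERK5-ko and parental libraries overlapped (-0.05, adjusted p = 0.886). A single comparison of 2 libraries with 2 cannot pass 0.05 in an exact permutation test, whose smallest two-sided p is 0.333.

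**Figure D2:**
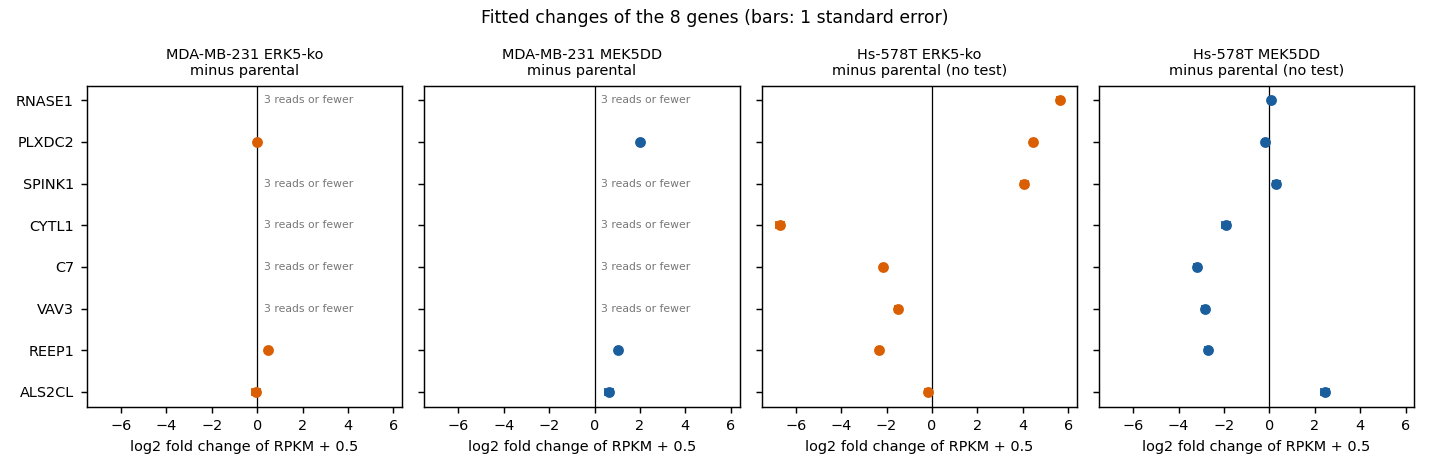
Log2 fold change of RPKM + 0.5 (horizontal axis) of the 8 genes in the 4 comparisons with parental cells, with bars of 1 standard error that are mostly within the symbols. The Hs-578T changes chose the genes and run from -6.71 to 5.64, while in MDA-MB-231 no value is drawn for the 5 genes at 3 reads or fewer, and PLXDC2 (2.02), REEP1 (1.03) and ALS2CL (0.63) are higher in MEK5DD.

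Over the 6 groups, the mean RPKM of PLXDC2 ran from 12.3 in Hs-578T ERK5-ko through 1.62 in MDA-MB-231 MEK5DD to 0.0778 in Hs-578T parental libraries, with the last 3 groups at 0.0236 or less. Of these, MDA-MB-231 parental (0.0236) overlapped ERK5-ko (0.0151) and ERK5-ko overlapped Hs-578T MEK5DD (0.00426), while the first and the last did not overlap, at 7 reads and 1 read in all. REEP1 had no such ties, from 5.93 in MDA-MB-231 MEK5DD through 4.93, 3.90, 2.65 and 0.585 down to 0.326 in Hs-578T MEK5DD, and neighbours in that order did not overlap. ALS2CL was highest in both MEK5DD groups, at 13.8 ± 4.02 and 9.31 ± 0.524 RPKM (SD, n = 2 each), which did not differ beyond their spread. Its MDA-MB-231 parental and ERK5-ko groups (5.87 and 5.62) did not either. Levels are compared here within a gene. Between genes they rest on the length in use, which the values give as 907 bases for RNASE1 and 1073 for C7, close to the mean length of the genes' GENCODE 29 transcripts (909 and 1078) and under the span of all their exons (1506 and 5223). With all exons as the length, C7 would be 4.87-fold and RNASE1 1.66-fold lower, and the fold changes would stay as they are.

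The genes most like each member over the 12 libraries were named by Pearson's r of log2 values, a description over libraries that fall into 6 groups of 2. RNASE1 was most like GABRA5 (r = 0.997), SLPI (0.997), a secreted protease inhibitor, and IZUMO3 (0.996). SPINK1 was most like MFAP5 (0.997), a microfibril protein, RYR3 (0.995) and KCNMB1 (0.993), and the r between RNASE1 and SPINK1 themselves was 0.99. All of these were high in the 2 Hs-578T ERK5-ko libraries alone, as SLPI with 33 and 26 reads there and 1 or 0 in each of the other 10. C7 and VAV3 had an r of 0.99 with each other and the same 2 genes nearest to them, FGF13 (0.995 and 0.993) and ZNF423 (0.994 and 0.991), followed by SEMA3F (0.988) for C7 and BRINP1 (0.990) for VAV3. CYTL1 was most like VIPAS39 (0.990), OMD (0.989) and RTN4RL1 (0.980). The nearest to REEP1 were IFITM2 (0.95), MRPL45 (0.945) and FAM209A (0.935), and to ALS2CL FDPS (0.947), PRDX6 (0.914) and CGRRF1 (0.906).

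The genes most like PLXDC2 shared its crossed pattern. SOX6, a transcription factor of chondrocyte and other lineages, had an r of 0.994 with it, followed by EPHA6 (0.956) and CLDN1 (0.95). SOX6 measured 5.39 and 5.49 RPKM in Hs-578T ERK5-ko libraries, 0.127 and 0.260 in parental and 0.225 and 0.141 in MEK5DD. In MDA-MB-231 it measured 1.29 and 0.927 in MEK5DD, 0.101 and 0.0298 in parental and 0.129 and 0.116 in ERK5-ko libraries. SOX6 was thus high in the same 4 libraries as PLXDC2. It was picked here for this likeness, so its log2 fold changes of 3.11 in Hs-578T ERK5-ko and 1.5 in MDA-MB-231 MEK5DD are a description, with no test.

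**Figure D3:**
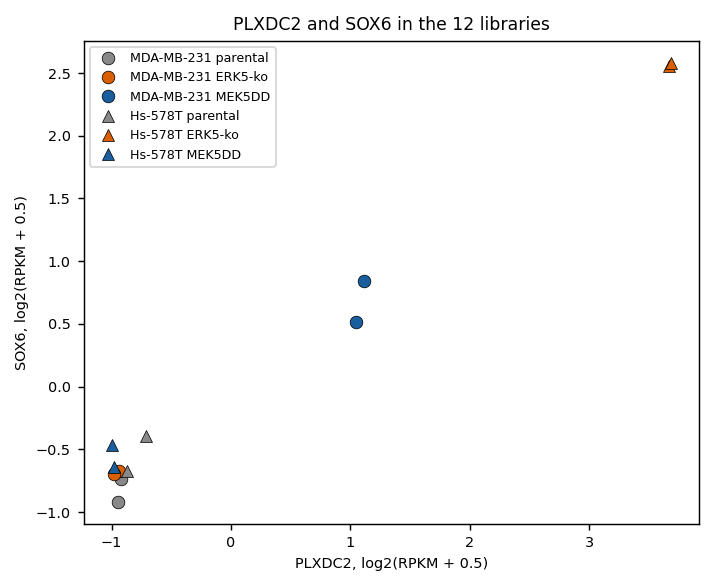
Log2(RPKM + 0.5) of SOX6 (vertical axis) against PLXDC2 (horizontal axis) in the 12 libraries, circles for MDA-MB-231 and triangles for Hs-578T, grey for parental, orange for ERK5-ko and blue for MEK5DD. The 2 Hs-578T ERK5-ko libraries are high for both genes, the 2 MDA-MB-231 MEK5DD libraries lie between, and the other 8 are together at the low end (r = 0.994).

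The genes beside the members were compared next, since the rule did not use them. No other entry of the table overlaps a member. Of the 16 nearest tested genes, 1 on each side of each member, 5 rose and 1 fell in Hs-578T ERK5-ko (31.2% and 6.25%, against 9.35% and 3.27% of all tested genes), 3 rose in Hs-578T MEK5DD (18.8% against 2.9%), and 1 rose in MDA-MB-231 ERK5-ko (6.25% against 2.8%, a single gene). In MDA-MB-231 MEK5DD 0 were called (against 7.64% higher and 6.31% lower), where limma voom called 2 and 2, KDM3A and LRRC2, had an unadjusted p under 0.05 in limma. The count of 5 fell to 3 without Hs-578T ERK5-ko replicate 2. Next to PLXDC2, MALRD1 rose in Hs-578T ERK5-ko (1.04, adjusted p = 1.2e-05) to 0.551 RPKM, having reached the filter through those 2 libraries alone. Without MALRD1, 4 of 15 nearest genes rose in Hs-578T ERK5-ko. On the other side of PLXDC2, NEBL rose in MDA-MB-231 ERK5-ko (1.33, adjusted p = 0.00063). Next to CYTL1, which was nearly lost in Hs-578T ERK5-ko, STK32B rose there (0.63, adjusted p = 0.000583). PLCXD3 next to C7 fell in Hs-578T ERK5-ko, by 1.32 on the log2 scale (adjusted p = 2.33e-06), in the direction of C7. On the other side of C7, CARD6 was lower there too (-0.96, adjusted p = 0.000106). Its fold was inside the limit, and limma voom called it lower. The nearest genes of RNASE1 (RNASE4 and METTL17), VAV3 (PRMT6 and SLC25A24) and REEP1 (MRPL35 and KDM3A) were called in no comparison.

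Around SPINK1 and ALS2CL the neighbours on both sides were higher with the member, so the window was widened to 500 kb, a choice made after the values were seen. Of the 7 tested genes in the SPINK1 window, 5 rose in Hs-578T ERK5-ko. C5orf46 rose by 2.54 (adjusted p = 7.91e-05), from 12.9 and 5.72 RPKM in parental to 59.3 and 46.5 in ERK5-ko libraries, and JAKMIP2 by 1.35 (adjusted p = 7.54e-05). The other 3 belong to the family of SPINK1. SPINK6 had 15 and 22 reads in ERK5-ko and none in the other Hs-578T libraries (1.91, adjusted p = 2.41e-06), SPINK5 had 30 and 41 reads against 2 and 0 in parental (1.21, adjusted p = 1.89e-05), and SPINK13 had 19 and 16 against 5 and 1 (1.11, adjusted p = 0.000115). These 3 reached 0.5 RPKM in the 2 Hs-578T ERK5-ko libraries alone and were in the tested set only because they were high there, so that their calls are in part set by the filter. Without them, 2 of 4 tested genes of the window rose, C5orf46 and JAKMIP2. These are the nearest genes whose rise led to the widening, so the window added no rise outside the SPINK family. The genes that did not pass, STK32A and DPYSL3 (both 0.09), lie farther out on the side of lower coordinates. In Hs-578T MEK5DD, where SPINK1 was near its parental level, C5orf46 rose too (1.65, adjusted p = 0.00298).

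Of the 8 tested genes in the ALS2CL window, 3 rose in Hs-578T MEK5DD, the farthest of them 183.8 kb away. TMIE, 7.6 kb away and on the opposite strand, rose by 1.98 (adjusted p = 6.66e-05), from 10 and 7 reads in parental to 110 and 66 in MEK5DD libraries. LTF, the gene of lactoferrin, rose by 2.06 (adjusted p = 5.63e-06) and LRRC2 by 1.16 (adjusted p = 9.8e-05). TMIE and LRRC2 are the nearest genes whose rise led to the widening, and of the genes it added only LTF rose. In MDA-MB-231 MEK5DD, where ALS2CL rose as well, TMIE was at 0.30 (adjusted p = 0.263) and LTF at -0.77 (adjusted p = 0.000928, a fold inside the limit), while NBEAL2 (-2.17, adjusted p = 2.9e-07) and CCRL2 (-1.2, adjusted p = 3.89e-05) fell and 0 of the 8 rose. Over the windows of all 8 members, 9 of 55 tested genes (16.4%) rose in Hs-578T ERK5-ko against 9.35% of all tested genes, and 4 of 55 (7.27%) in Hs-578T MEK5DD against 2.9%. Of the 9, 4 reached the filter through the Hs-578T ERK5-ko libraries alone (MALRD1, SPINK5, SPINK6 and SPINK13), and without such genes 5 of 51 rose. The SPINK1 window holds 5 of the 9 and the ALS2CL window 3 of the 4. Both counts rest in part on the neighbours that led to the wider windows.

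**Figure D4:**
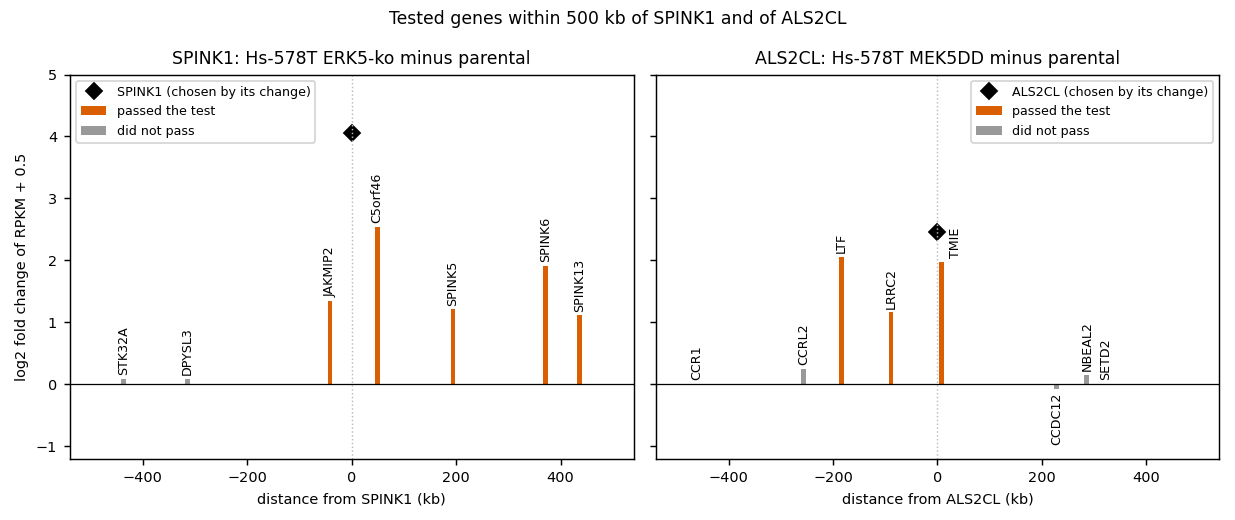
Log2 fold change of RPKM + 0.5 (vertical axis) of tested genes within 500 kb of SPINK1 in Hs-578T ERK5-ko and of ALS2CL in Hs-578T MEK5DD against distance from the member in kb (horizontal axis, ascending coordinates), with genes that passed the test in orange. The member, chosen by its change, is the diamond, with 5 of 7 neighbours of SPINK1 and 3 of 8 of ALS2CL higher. Among the higher ones are the nearest genes on each side, whose rise led to the choice of window.

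Genes that share a function with the members were counted in 8 lists, of which 70 genes were tested, members left out. In Hs-578T ERK5-ko 6 rose and 13 fell (8.57% and 18.6%, against 9.35% and 3.27% of all tested genes), and in Hs-578T MEK5DD 3 rose and 2 fell (4.29% and 2.86%, against 2.9% and 1.49%). In MDA-MB-231 ERK5-ko 9 rose and 1 fell (12.9% and 1.43%, against 2.8% and 1.07%), and in MDA-MB-231 MEK5DD 5 rose and 12 fell (7.14% and 17.1%, against 7.64% and 6.31%). The rises in MDA-MB-231 MEK5DD and the fall in MDA-MB-231 ERK5-ko were near the shares of all genes. The rises in Hs-578T ERK5-ko were so as counted. However, 3 of these 6, SPINK5, SPINK6 and SPINK13, reached the filter through those libraries alone. Without them 3 of 67 rose. Complement genes make up most of the falls.

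Of 21 tested complement genes, 8 fell and 0 rose in Hs-578T ERK5-ko (limma, with 2 higher at an unadjusted p under 0.05 and 0 by limma voom), among them C1R, C1S, C2, CFB and SERPING1, with a median log2 fold change over the list of -0.53 against 0.01 for all tested genes. C1R and C1S, the proteases that start the classical pathway, had means of 307 and 126 RPKM in parental and 132 and 48.4 in ERK5-ko libraries (-1.21, adjusted p = 1.27e-05 and -1.37, adjusted p = 7.64e-06). C2 fell by 1.60 (adjusted p = 8.44e-06) and SERPING1, the inhibitor of C1, by 1.68 (adjusted p = 5.68e-05). In MDA-MB-231 ERK5-ko, where C7 had no read, 8 complement genes rose and 1 fell, with C1S at 0.92 (adjusted p = 0.000422) and CFI at 1.66 (adjusted p = 2.73e-05). The ERK5-ko change differed between the lines for 14 of the 21 (66.7%, limma contrast of contrasts, adjusted p under 0.05), against 39.8% of all tested genes.

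In MDA-MB-231 MEK5DD, 7 complement genes fell, C2, CFB, CFD, CFP, CFI, CLU and VTN, and 0 rose (limma, with 2 at an unadjusted p under 0.05 and 1, MASP1, by limma voom), with C2 at -2.06 (adjusted p = 4.74e-07). In Hs-578T MEK5DD, where C7 was lowest among the Hs-578T groups, C3 and CFI rose and C4B and SERPING1 fell. C7 itself therefore was low in both engineered Hs-578T lines, while the median of the other complement genes there was -0.53 in ERK5-ko and -0.08 in MEK5DD. C4A and C4B are near-identical copies that share reads, and their values are uncertain.

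**Figure D5:**
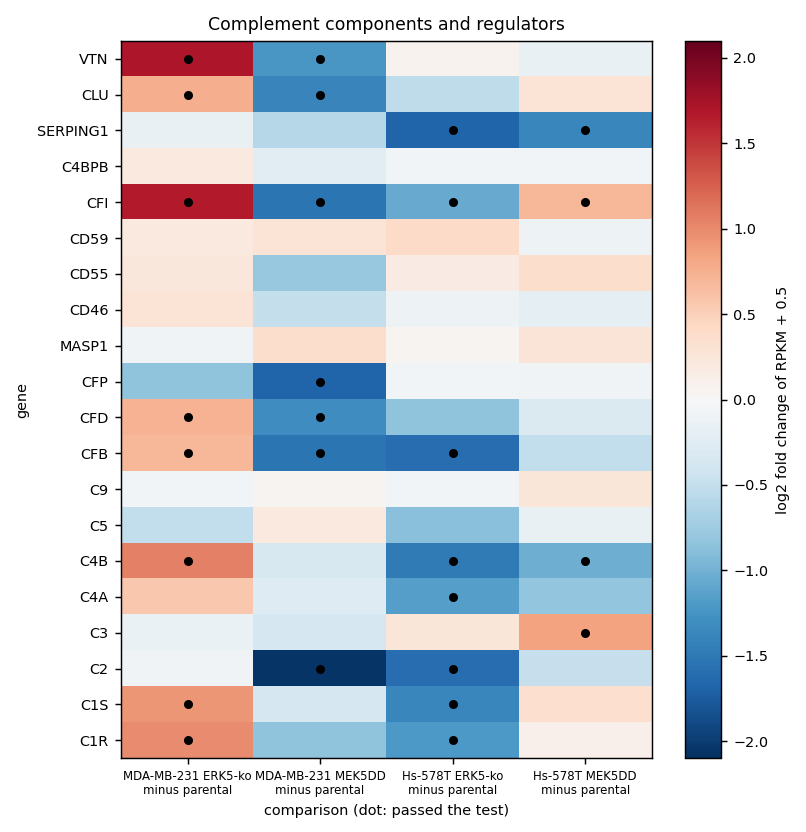
Log2 fold change of RPKM + 0.5 (colour, red higher and blue lower) of tested complement genes other than C7 in the 4 comparisons with parental cells, with a dot where the gene passed the test. Of the genes shown, 8 have a red dot in MDA-MB-231 ERK5-ko, and all dots are blue in Hs-578T ERK5-ko (8) and MDA-MB-231 MEK5DD (7).

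Among 6 tested SPINK inhibitors and trypsins, which SPINK inhibitors such as SPINK1 block, the 3 that rose in Hs-578T ERK5-ko are those of its window, tested through those libraries alone. MDA-MB-231 cells expressed other members. SPINK4 fell from a mean of 24.6 RPKM in parental to 1.17 in MEK5DD libraries (-3.91, adjusted p = 2.87e-10) and rose to 40.4 in ERK5-ko (0.71, adjusted p = 0.0009), and the trypsin gene PRSS2 fell from 14.6 to 1.11 in MEK5DD (-3.26, adjusted p = 2.5e-08). Hs-578T libraries had no read of SPINK4. PRSS2 and PRSS3 are close copies, and their split is uncertain.

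Of the 4 tested genes related to PLXDC2, 3 fell in Hs-578T ERK5-ko, where PLXDC2 was high. They were its paralog PLXDC1 (-1.19, adjusted p = 0.000296), SERPINF1 (-1.93, adjusted p = 2.58e-05), which encodes the factor that both bind, and the basement membrane protein NID2 (-2.74, adjusted p = 6.31e-07). In MDA-MB-231 MEK5DD, where PLXDC2 rose, PLXDC1 fell by 1.60 (adjusted p = 2.07e-05) and SERPINF1 rose by 0.96 (adjusted p = 0.00227). PLXDC1 therefore fell in both engineered lines in which PLXDC2 was high.

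Of 4 tested cartilage genes, SOX9 (0.78, adjusted p = 0.0001) and SOX6 rose in Hs-578T ERK5-ko, where CYTL1 was lowest among the Hs-578T groups, and SOX5 and SOX6 in MDA-MB-231 MEK5DD. The SOX6 changes are the ones given above as a description with no test, and the counts of this list and of all lists include them. RAC3, a small GTPase, was the 1 gene called of 9 in the VAV3 list, falling in Hs-578T ERK5-ko (-1.06, adjusted p = 0.000511) and rising in MDA-MB-231 MEK5DD (1.14, adjusted p = 0.00022). Of 15 genes that shape the endoplasmic reticulum, REEP6 fell with REEP1 in Hs-578T ERK5-ko (-1.51, adjusted p = 7.8e-05) and REEP4 rose (0.80, adjusted p = 0.000302), while in MDA-MB-231 MEK5DD ATL1 fell (-1.11, adjusted p = 2.15e-05) and RTN1 rose (0.86, adjusted p = 0.000125). In the lists of 3 RNase A genes and 8 genes related to ALS2CL and RAB5, 0 were called in any of the 4 comparisons by limma or by limma voom. At an unadjusted p under 0.05, RNASE4 was lower in Hs-578T ERK5-ko (-0.44), and in the list related to ALS2CL from 2 to 4 genes differed in each comparison, as RIN1 at -0.69 in Hs-578T ERK5-ko.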

How the data were processed

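RNA of 12 libraries was measured, 2 in each of 6 groups set by cell line and label. The authors deposited RPKM values, each column of which names its sample. The submitters' processing notes name bcl2fastq, Trimmomatic 0.32, TopHat2 2.1.1, R 3.3.1, DESeq2 1.12.4 and GRCh38, with no roles, and the counting rule and annotation are not given in the sources used here. Because values of a gene move in steps worth 1 read each, whole reads were recovered for 32151 of 32152 entries (tolerance 1e-05), while library totals 1% off gave them for 0 of 500 control entries.

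The 13737 protein-coding genes that reached 0.5 RPKM in 2 or more libraries were fitted as log2(RPKM + 0.5) with limma 3.58.1 (variance trend) in R 4.3.3, as 6 group means with 6 residual degrees of freedom. The pseudocount understates the change of low genes. Adjusted p values are those of Benjamini and Hochberg over all genes of a comparison. Calls required one under 0.05 together with a fold over 1.5 or under 0.5. A contrast of contrasts tested differences between lines for genes that are not members. Folds of reads were taken over pooled reads scaled to the totals, with exact 95% intervals for counting error only. A group at 3 reads or fewer in both libraries was taken as at the floor. The scripts were tested on simulated data. Other steps ran in Python 3.11.15 with pandas 2.3.3, numpy 2.4.6, matplotlib 3.10.9 and scipy 1.17.1.

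The members and gene lists were chosen with earlier results of these data known. Named are the members, MAPK7 and MAP2K5, the nearest tested gene on each side of a member, the 3 genes most like each member over the libraries, and in each list up to 2 called genes with the largest change and a mean RPKM of at least 1. Others named, among them C1R, C1S, CFI, C3, PLXDC1, REEP4, RTN1, SOX5 and the genes of the 500 kb windows, were chosen after their values were seen. Some genes that the lists count are not reported here by name. The 24 alternatives were 12 fits with 1 library left out and 12 others, which changed the pseudocount, filter, scaling, libraries in the fit, gene types, variance trend, fold threshold and replicate block, or used limma voom on the recovered reads. Promoters came from RefSeq GRCh38.p14, and no protein sequence was used here.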

Additional observations from a re-analysis of the deposited data

Results flagged for a closer look

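The changes of several related and neighbouring genes differed between the lines (limma contrast of contrasts on log2(RPKM + 0.5), MDA-MB-231 change minus Hs-578T change, adjusted over all tested genes). A difference of this kind was common, at 39.8% of all tested genes for ERK5-ko and 39.6% for MEK5DD. The related genes were named for large changes in these same comparisons, so their differences were in part set by that choice. For ERK5-ko it was 2.74 for NID2 (adjusted p = 1.1e-05), 1.69 for SERPINF1 (adjusted p = 0.000752), 0.71 for SPINK4 (adjusted p = 0.00286), -0.87 for SOX9 (adjusted p = 0.000522), 1.52 for C2 (adjusted p = 0.000157), 1.53 for SERPING1 (adjusted p = 0.00118), 0.85 for RAC3 (adjusted p = 0.0150) and 1.74 for REEP6 (adjusted p = 0.000351). The MDA-MB-231 changes of NID2, C2, SERPING1 and REEP6 were 0.00, -0.08, -0.15 and 0.22, beside Hs-578T changes of -2.74, -1.60, -1.68 and -1.51. In MDA-MB-231, NID2 was at 0.00931 RPKM in parental and 0.00922 in ERK5-ko libraries, so its 0.00 is that of a nearly silent gene. SERPING1 was at 0.33 and 0.246 there, and SERPINF1 at 0.127 and 0.0276. SPINK4 had no read in Hs-578T, so its difference is that of MDA-MB-231 alone. Among the nearest genes of members it was 1.27 for NEBL (adjusted p = 0.00272), -1.19 for JAKMIP2 (adjusted p = 0.00191), -3.11 for C5orf46 (adjusted p = 0.000234), -0.65 for STK32B (adjusted p = 0.00406) and -0.85 for LRRC2 (adjusted p = 0.00280).

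For MEK5DD the difference was 0.78 for SERPINF1 (adjusted p = 0.0450), -3.91 for SPINK4 (adjusted p = 1.24e-08), -3.26 for PRSS2 (adjusted p = 9.35e-07), -1.57 for C2 (adjusted p = 0.000105), 0.77 for SERPING1 (adjusted p = 0.0422), 1.15 for RAC3 (adjusted p = 0.00283), -0.59 for ATL1 (adjusted p = 0.0173), -1.80 for C5orf46 (adjusted p = 0.00661) and -1.56 for LRRC2 (adjusted p = 4.34e-05). SPINK4 and PRSS2 had no read in parental or MEK5DD libraries of Hs-578T, so that their differences are those of MDA-MB-231 alone. C5orf46 and LRRC2 were low in MDA-MB-231, at parental means of 0.246 and 0.161 RPKM and MEK5DD means of 0.175 and 0.

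Of the 13 ERK5-ko differences, 6 had an adjusted p under 0.05 in all 22 alternatives that give this value, as did 5 of the 9 for MEK5DD. limma voom on the recovered reads raised the adjusted p of 6 ERK5-ko differences above 0.05, NID2 (adjusted p = 0.061), SERPINF1 (0.343), SPINK4 (0.263), NEBL (0.0722), STK32B (0.163) and JAKMIP2 (0.219), and those of SERPING1 (0.36) and C5orf46 (0.196) for MEK5DD. The adjusted p of RAC3 for ERK5-ko was above 0.05 without Hs-578T ERK5-ko replicate 2 (0.0743), Hs-578T parental replicate 1 (0.0509), MDA-MB-231 ERK5-ko replicate 2 (0.063) or MDA-MB-231 parental replicate 1 (0.0629), and that of ATL1 for MEK5DD without MDA-MB-231 MEK5DD replicate 2 (0.0844) or parental replicate 2 (0.0792). For MEK5DD it was above 0.05 in 14 of the 22 alternatives for SERPINF1 (up to 0.165) and in 15 for SERPING1 (up to 0.943).

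In REEP1 and PLXDC2 both MEK5DD libraries lay above parental in MDA-MB-231 and below it in Hs-578T. The difference was not tested because the Hs-578T change chose these genes. It was 3.75 for REEP1 (1.03 against -2.72) and 2.21 for PLXDC2 (2.02 against -0.19). C7 and VAV3 had the same order, but with 1 read in each MDA-MB-231 MEK5DD library, at the floor. How many of all tested genes have this order was not counted.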

How the results depend on the processing

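PLXDC2 and REEP1 were called higher in MDA-MB-231 MEK5DD under all 24 alternatives, with log2 fold changes of 1.36 to 5.94 and 0.93 to 1.16, and ALS2CL under all but the 2 fits without MDA-MB-231 MEK5DD replicate 2 or parental replicate 1 (0.51 to 0.74, adjusted p from 0.00105 to 0.0976). With no fold threshold, 1 member, REEP1, was higher in MDA-MB-231 ERK5-ko, related genes numbered 16 higher and 5 lower there, 28 lower in MDA-MB-231 MEK5DD, 25 lower in Hs-578T ERK5-ko and 9 higher and 13 lower in Hs-578T MEK5DD, and neighbouring genes 2 lower in MDA-MB-231 MEK5DD, 2 lower in Hs-578T ERK5-ko and 5 lower in Hs-578T MEK5DD, where the missing threshold itself adds genes. limma voom on the recovered reads, which has no pseudocount, called 1 member lower in MDA-MB-231 MEK5DD (RNASE1), 4 related genes lower in Hs-578T MEK5DD, and 2, 2 and 1 neighbouring genes lower in MDA-MB-231 MEK5DD, Hs-578T ERK5-ko and Hs-578T MEK5DD. It also turned the difference between lines to -0.82 for SERPING1 (MEK5DD, adjusted p = 0.36), 1.69 for JAKMIP2 (ERK5-ko, adjusted p = 0.219) and -0.97 for PLCXD3 (MEK5DD, adjusted p = 0.3), genes with few reads in 1 line. Related genes in Hs-578T MEK5DD, 3 higher and 2 lower, became 1 and 1 with libraries of the same line only and with a pseudocount of 1, 1 lower with median-ratio scaling or quantile normalization, 1 higher with no filter and 4 lower with a pseudocount of 0.1. In MDA-MB-231 ERK5-ko, 0 related genes were lower with a pseudocount of 1 or quantile normalization. A pseudocount of 0.1 gave 1, 1, 2 and 1 neighbouring genes lower in the 4 comparisons, and Hs-578T ERK5-ko gave 0 with a pseudocount of 1 and 2 with quantile normalization. The causes of these shifts were not tested. Leaving out 1 library gave 0 to 3 related genes higher in Hs-578T MEK5DD (0 without parental replicate 1, 1 without parental replicate 2 or MEK5DD replicate 1) and 1 to 3 lower (1 without parental replicate 2), 0 to 2 lower in MDA-MB-231 ERK5-ko (0 without parental replicate 1, 2 without ERK5-ko replicate 2), and in Hs-578T ERK5-ko 3 to 5 neighbouring genes higher (3 without ERK5-ko replicate 2) and 1 to 2 lower (2 without parental replicate 1). The lone library of the group is then assumed to vary like the other groups. The 500 kb windows, chosen after seeing the data, held 3 genes higher in MDA-MB-231 ERK5-ko, 3 higher and 4 lower in MDA-MB-231 MEK5DD, 9 higher and 2 lower in Hs-578T ERK5-ko and 4 higher in Hs-578T MEK5DD, since they hold more genes. With the replicate number as a block, members called higher in MDA-MB-231 MEK5DD remained 3 in number, and the counts for related and neighbouring genes were equal to those without it. The numbers are shared by label only, with correlations of deviations of 0.107 to 0.541 between groups of a line.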
